A study of Mus musculus with 3 samples.

Results

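Transporters of sugars, amino acids, small peptides and monocarboxylates are described here across the cell types of the developing mouse small intestine. The members are all gene symbols of the solute carrier families SLC1, SLC2, SLC3, SLC5, SLC6, SLC7, SLC15, SLC16, SLC36, SLC38 and SLC43, which gave 106 of the 22100 symbols of the count tables. They were picked by symbol alone, with no measured value, and 3 of them (Slc7a6os, Slc6a19os and Slc36a3os) are genes on the opposite strand of a carrier gene. The study is titled for a mesenchymal SLMAP and MST3 kinase programme in gut elongation, and it profiled single cells of small intestine from wild-type, untreated mice. There was 1 library for each of 3 stages, which were E15.5 and E17.5 (E for embryonic day) and P7 (day 7 after birth). Viable cells were sorted as Epcam-positive, or as negative for Epcam, CD31 and CD45, so the sort set the epithelial share of each library and took out most endothelial and blood cells. The sources used here do not give strain, sex or the number of animals.

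The gut epithelium takes up the products of digestion through carriers in the brush border, the membrane facing the lumen, and passes them to the blood through other carriers in the basolateral membrane. Glucose enters on the sodium-coupled carrier Slc5a1 and fructose on Slc2a5, and both leave on Slc2a2. Amino acids enter singly (Slc6a19 for neutral ones, the Slc3a1 and Slc7a9 pair for cystine and cationic ones) or as small peptides on Slc15a1, and leave through Slc3a2 paired with Slc7a7 or Slc7a8 and through the uniporters Slc16a10 and Slc43a2. Every other cell type needs carriers too, for fuel, for growth and, in neurons, for neurotransmitter precursors.

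The libraries held 8447 cells (E15.5), 11598 cells (E17.5) and 8391 cells (P7), with 93501273, 94023160 and 116038115 unique molecular identifiers (UMIs, 1 per captured RNA molecule). Cells were clustered within each library without the member genes, and a cluster was named as like a cell type from fixed marker lists, so the names are rebuilt and not the authors' own. Enterocyte-like cells numbered 2800 at P7 and 331 at E17.5, where they carried 81113 and 70786 CPM (counts scaled to a total of 1000000) of the 16 enterocyte markers summed. None were named at E15.5, and their place is taken by 387 transitional cells with 14039 CPM of those markers. Epithelium low in both enterocyte and secretory markers is called undifferentiated at E15.5 (751 cells) and E17.5 (858 cells), and crypt at P7 (1844 cells), where the 10 crypt markers summed to 3489 CPM, against 349 CPM in the undifferentiated cells of E17.5. Levels are CPM of the UMIs summed over a class. Values in brackets after a level are its exact Poisson 95% interval, and those after a log2 ratio an exact binomial 95% interval. Both cover counting error only. With 1 library per stage, stage, animal and library cannot be told apart, no difference was tested, and a member is called higher or lower where its level differed 2-fold or more.

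Of the 106 members, 87 reached 30 UMIs in at least 1 class, and 64, 75 and 77 did so at E15.5, E17.5 and P7. The nearest inside that limit were Slc2a6 and Slc7a10 with 30 UMIs each. The nearest outside were Slc6a20b with 26 UMIs, Slc2a7 with 22 UMIs and Slc5a10 with 19 UMIs. The enterocyte-like kinds were taken singly for this count. Pooled over the 3 kinds of P7, Slc2a7 and Slc5a10 did reach 30 UMIs. Both are therefore among the members higher in P7 enterocyte-like than crypt-like cells below. Slc36a2 had no UMI in any class of any library, and the members listed at 0 throughout a library numbered 11 at E15.5, 4 at E17.5 and 6 at P7. A gene listed at 0 throughout a library may have been taken out of the table before deposit. All 13 SLC7 carriers reached the limit, as did both heavy chains (Slc3a1 and Slc3a2), 12 of 14 SLC16 carriers, 11 of 12 facilitated sugar carriers and 6 of 7 SLC1 carriers. The share was smaller for the SLC6 carriers (13 of 19) and for the sodium-coupled sugar and inositol carriers (5 of 8). The class with the highest level was neuronal-like for 14 of the 87 members and fibroblast-like for 7. For 30 members it was 1 of the 3 enterocyte-like kinds of P7 or the E17.5 enterocyte-like cells (13 lipid-absorbing, 9 intermediate and 8 lysosome-rich). The limit weighs on classes unequally, since 30 UMIs are 0.99 CPM in P7 crypt-like cells and 346 CPM in P7 interstitial cell of Cajal-like cells. The same counts over all genes were not taken, so these describe the members only. Slc6a20a and Slc6a20b, and Slc5a4a and Slc5a4b, are near-identical pairs between which reads may be split, so their levels are uncertain.

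**Figure D1:**
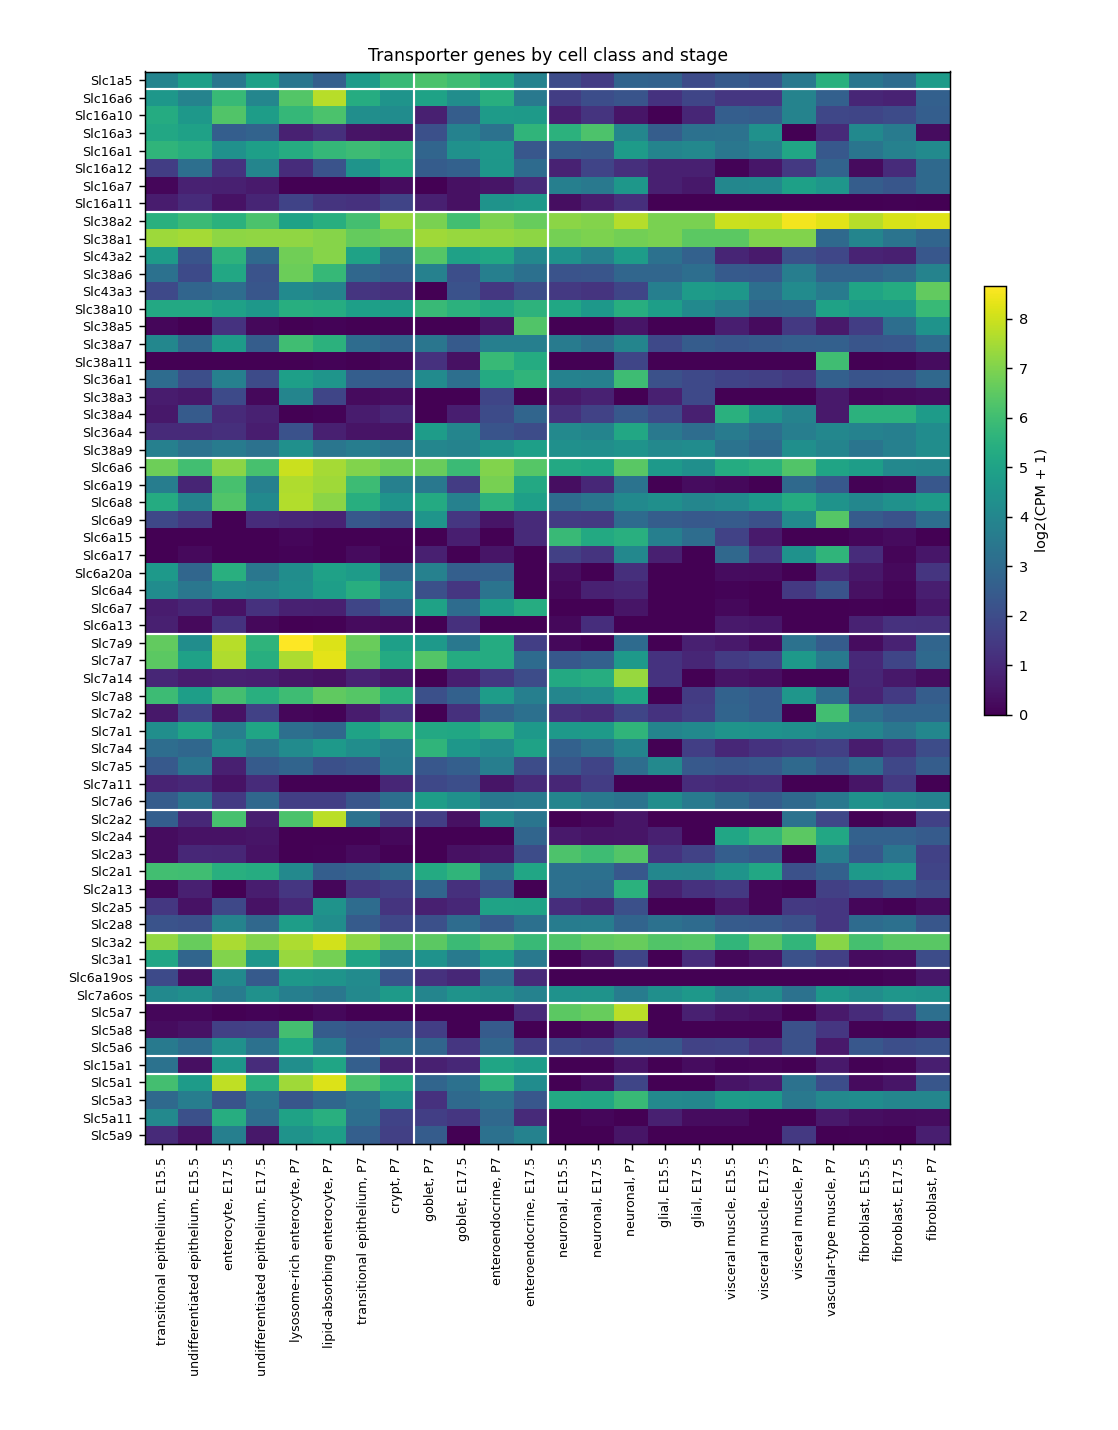
Heat map of the members reported here with a highest level of 20 CPM or more, as log2(CPM + 1) by colour, with members down the page grouped by role and classes of each stage across; white lines divide the roles and the epithelial, secretory and non-epithelial classes, and the P7 glial-like cells are left out for low depth. Slc38a1, Slc38a2, Slc3a2 and Slc6a6 are bright across nearly all columns, the brush border and basolateral carriers mainly in enterocyte-like columns, and Slc5a7 and Slc7a14 in the neuronal-like columns.

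A small group of carriers was high nearly everywhere. Among 31 class and stage combinations, Slc3a2, the heavy chain shared by many SLC7 exchangers, was among the 5 highest members in 30. Slc38a2 and Slc38a1, sodium-coupled carriers of small neutral amino acids such as glutamine, were among the 5 highest in 25 and 23. Slc6a6, the taurine carrier, was among them in 21. Among classes of 50 or more cells, Slc38a2 had its highest level in the E17.5 interstitial cell of Cajal-like cells, at 377 CPM (347–409). Slc38a1 had its highest in the undifferentiated epithelium of E15.5, at 178 CPM. The 23 interstitial cell of Cajal-like cells of P7 gave 416 CPM of Slc38a2, but 30 UMIs are already 346 CPM in that class. The 106 members summed to 3229 CPM in P7 enterocyte-like cells, of which the 5 highest (Slc7a9, Slc7a7, Slc5a1, Slc3a2 and Slc6a6) made up 40.6%. Their sum was 2249 CPM in E17.5 enterocyte-like cells, 1164 CPM in P7 crypt-like cells, and 975 CPM and 1053 CPM in the undifferentiated epithelium of E15.5 and E17.5. UMIs are counted at the 3′ end and were not divided by gene length, so levels of different genes are compared as molecules captured.

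Most textbook gut transporters stood higher in enterocyte-like than in crypt-like cells of P7. Of the 67 members with 30 UMIs in P7 enterocyte-like or crypt-like cells, 35 were higher in the enterocyte-like cells, beside 19.6% of all genes, and 18 were lower, beside 26.5% of all genes. The median log2 ratio was 1.40 over the members and -0.17 over all genes. Of the 20 textbook gut transporters, 16 were higher and 1, Slc1a5, was lower. At E17.5, enterocyte-like cells set against undifferentiated epithelium gave 22 higher of 47 members, beside 12.3% of all genes, and 9 lower, beside 19.2%. The median there was 0.87 over the members and -0.19 over all genes. The class names rest on other genes of the same cells, and the 16 enterocyte markers hold no member.

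For sugars, the exit carrier Slc2a2 differed most. It had 163 CPM (159–166) in P7 enterocyte-like cells, against 2.54 CPM (2.00–3.17) in P7 crypt-like cells, a log2 ratio of 6.0 (5.68–6.34). At E17.5 the difference in Slc2a2 was as wide, with 68.9 CPM (62.2–76.1) in enterocyte-like cells, against 0.602 CPM (0.275–1.14) in undifferentiated cells. Slc5a1, the entry carrier of glucose and galactose on chromosome 5 (GRCm38 chr5:33104219-33162870), was more widely spread over the epithelium. Its level was 249 CPM (245–254) in P7 enterocyte-like cells and 42.7 CPM (40.4–45.1) in P7 crypt-like cells, a log2 ratio of 2.54 (2.46–2.63). In E17.5 cells Slc5a1 stood at 228 CPM (216–241) in enterocyte-like cells and 44.4 CPM (41.1–48.0) in undifferentiated cells. The fructose carrier Slc2a5 was low, at 13.1 CPM (12.1–14.1) in P7 enterocyte-like cells and 1.45 CPM in crypt-like cells. Slc5a9, a sodium-coupled mannose and fructose carrier, and Slc5a11, which carries myo-inositol, had 25.3 CPM and 39.7 CPM in P7 enterocyte-like cells, against 2.11 CPM and 2.38 CPM in crypt-like cells. Among single cells thinned to 3000 UMIs each, 42.5% of the lipid-absorbing enterocyte-like cells of P7 held a Slc2a2 UMI (84.1% unthinned), against 0.659% of crypt-like cells (3.42% unthinned). Fibroblast-like cells of P7, which should lack it, gave 0.741% (1.07% unthinned), and the crypt share was no higher. Median depth was 14948.5 UMIs in crypt-like cells and 4606 UMIs in fibroblast-like cells. The thinning left out 15 lipid-absorbing, 22 crypt-like and 121 fibroblast-like cells.

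The peptide carriers were lower in level, and Slc15a1 had the wider ratio of the 2 described. Slc15a1, the proton-coupled entry carrier of dipeptides and tripeptides, had 26.8 CPM (25.3–28.2) in P7 enterocyte-like cells, against 0.693 CPM (0.429–1.06) in crypt-like cells, a log2 ratio of 5.27 (4.65–5.97). Its E17.5 levels were 22.8 CPM (19–27.1) in enterocyte-like cells, against 1.14 CPM in undifferentiated cells. Slc15a2, the higher-affinity peptide carrier best known from kidney, had 7.40 CPM in P7 enterocyte-like cells and 1.88 CPM in crypt-like cells.

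The entry carriers of amino acids include the highest member. Slc7a9, the light chain of the cystine and cationic amino acid exchanger, was the highest member in P7 enterocyte-like cells, with 340 CPM (335–345), against 28.4 CPM (26.6–30.4) in crypt-like cells. Its heavy chain Slc3a1 had 133 CPM (130–136) in P7 enterocyte-like cells and 13 CPM in crypt-like cells. Slc6a19, the main carrier of neutral amino acids, had 185 CPM (181–188) in P7 enterocyte-like cells and 12.8 CPM in crypt-like cells, a log2 ratio of 3.85 (3.71–4.0). Slc6a20a, which carries proline, differed less, with 24.8 CPM in enterocyte-like cells and 6.40 CPM in crypt-like cells. The proton-coupled carrier Slc36a1 had 25.4 CPM in enterocyte-like cells and 4.59 CPM in crypt-like cells. The creatine carrier Slc6a8 had 167 CPM in enterocyte-like cells and 21.3 CPM in crypt-like cells, and the taurine carrier Slc6a6 had 214 CPM in enterocyte-like cells and 104 CPM in crypt-like cells. Slc1a1, a glutamate and aspartate carrier, did not differ 2-fold, with 6.94 CPM in enterocyte-like cells and 9.44 CPM in crypt-like cells.

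Among the basolateral carriers Slc7a7, Slc43a2, Slc16a10, Slc3a2, Slc7a8 and Slc16a1, the ratios ran from under 2-fold to a log2 ratio of 4.0. Slc7a7, the light chain for cationic amino acids, had 267 CPM in P7 enterocyte-like cells, against 38.4 CPM in crypt-like cells, a log2 ratio of 2.80. Slc43a2, a uniporter of large neutral amino acids, had 127 CPM in enterocyte-like cells and 7.98 CPM in crypt-like cells, a log2 ratio of 4.0. The aromatic amino acid carrier Slc16a10 had 65.8 CPM in enterocyte-like cells and 17.6 CPM in crypt-like cells. For Slc3a2 the levels were 240.3 CPM in enterocyte-like cells and 91.2 CPM in crypt-like cells, a log2 ratio of 1.40. Slc7a8 stayed under 2-fold, at 81.9 CPM in enterocyte-like cells and 45.0 CPM in crypt-like cells, as did the lactate and short-chain monocarboxylate carrier Slc16a1, at 48.1 CPM in enterocyte-like cells and 51.0 CPM in crypt-like cells. The carriers that follow are not assigned to a membrane side here. Slc16a6, known in zebrafish liver as a ketone body exporter, had 160 CPM in enterocyte-like cells, against 21.3 CPM in crypt-like cells. Slc38a6 and Slc38a7, the second a lysosomal glutamine carrier, had 75.9 CPM and 53.9 CPM in enterocyte-like cells and 5.08 CPM and 5.91 CPM in crypt-like cells. Low members with wide ratios were Slc38a3 (6.76 CPM in enterocyte-like cells and 0.264 CPM in crypt-like cells), Slc6a14 (4.05 CPM, against 0.165 CPM in crypt-like cells), the dopamine carrier Slc6a3 (5.52 CPM, against 3 UMIs in crypt-like cells, log2 interval 4.24 to 8.09) and Slc7a15 (1.5 CPM, against 2 UMIs, log2 interval 2.61 to 7.58).

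**Figure D2:**
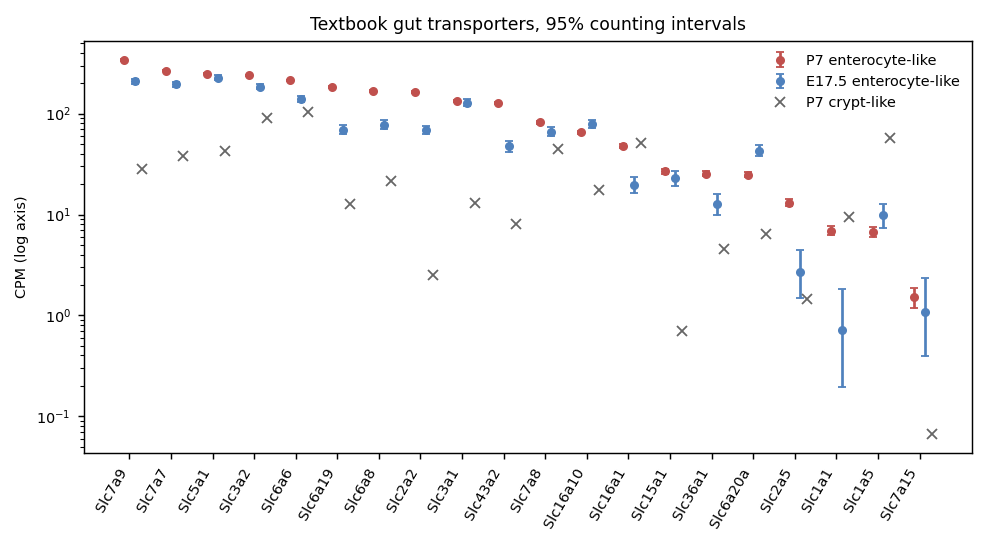
Levels of the 20 textbook gut transporters in CPM on a log axis, with P7 enterocyte-like cells in red and E17.5 enterocyte-like cells in blue, bars giving the exact Poisson 95% interval, and P7 crypt-like cells as crosses. Slc2a2 and Slc15a1 have the widest gaps between enterocyte-like and crypt-like cells, and Slc1a5 is the member whose cross lies far above its points for enterocyte-like cells.

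Several amino acid carriers and a creatine carrier were among the lower members. Slc1a5, an exchanger of glutamine and other neutral amino acids, had 6.68 CPM in P7 enterocyte-like cells, against 57.9 CPM in crypt-like cells, a log2 ratio of -3.12 (-3.29 to -2.95). The cationic amino acid carrier Slc7a1 had 6.84 CPM in enterocyte-like cells and 49.8 CPM in crypt-like cells. Slc38a2 had 36.7 CPM in enterocyte-like cells and 158 CPM in crypt-like cells. Slc16a12, a creatine carrier, had 2.75 CPM in enterocyte-like cells and 40.5 CPM in crypt-like cells, a log2 ratio of -3.88 (-4.15 to -3.63). The other lower members near the bottom were the glutamate carrier Slc1a3 (log2 ratio -5.74), Slc7a2 (-4.30), Slc43a1 (-4.08), Slc16a5 (-3.07), the proline carrier Slc6a7 (-2.90) and Slc1a4 (-2.64), none above 10 CPM in either class. At E17.5 the lower members in enterocyte-like cells were Slc16a12 (1.42 CPM, against 14.4 CPM in undifferentiated cells), Slc7a5 (0.712 CPM, against 4.55 CPM in undifferentiated cells), Slc1a5 (9.79 CPM, against 29.5 CPM in undifferentiated cells) and Slc7a1 (12.1 CPM, against 33.2 CPM in undifferentiated cells). The remaining lower members of E17.5 were Slc7a2 (2 UMIs in enterocyte-like cells, log2 interval -5.74 to -0.66), Slc7a6 (-1.85), Slc1a4 (-1.78), Slc43a1 (-1.39) and the inositol carrier Slc5a3 (-1.32). All 8 proliferation genes were lower in enterocyte-like cells in both settings, and their part in these differences was not tested.

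The 10 widest ratios of enterocyte-like over undifferentiated cells were those of Slc2a2 (log2 ratio 6.84, 5.90–7.98), Slc5a9 (4.73), Slc15a1 (4.33, 3.59–5.15), Slc38a6 (3.28), Slc43a2 (2.83), Slc3a1 (2.48), Slc6a19 (2.44), Slc5a11 (2.44), Slc38a7 (2.43) and Slc5a1 (2.36, 2.22–2.5). The E17.5 enterocyte-like cells came from 2 clusters, and the smaller (68 cells, 0.719% mitochondrial UMIs, against 7.68% in the 263 cells of the larger) was much lower in Slc5a1, at 9.93 CPM, against 254 CPM in the larger. It was also lower in Slc2a2 (24.8 CPM, against 74.2 CPM in the larger), Slc7a9 (126 CPM, against 220.1 CPM in the larger) and Slc7a7 (122 CPM, against 204 CPM in the larger).

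The promoters of 3 carriers that were higher in enterocyte-like than in crypt-like cells are shown as examples that hold a match to a motif of an intestinal transcription factor. Other higher members also held matches, among them Slc7a9, Slc7a7 and Slc7a15. Many held none, among them Slc2a2, Slc6a19 and Slc15a1. Each sequence is the 250 bases before the gene's start in RefSeq on GRCm38.p6, read 5′ to 3′ along the gene, with the matches in capitals. The amino acid exchanger subunit Slc3a1 (chr17:85028097-85028346, plus strand) has a GATA match AGATAA at position -119 from the start, a CDX match TTTATTG at -73 and an HNF4 match AAAGTCC at -38. The glucose carrier Slc5a1 (chr5:33103969-33104218, plus strand) has an HNF4 match GGACTTT at -78, on the opposite strand. The proline carrier Slc6a20a (chr9:123678833-123679082, minus strand) has an HNF1 motif GTTAAT at -56. No match in these sequences overlaps another.
Slc3a1: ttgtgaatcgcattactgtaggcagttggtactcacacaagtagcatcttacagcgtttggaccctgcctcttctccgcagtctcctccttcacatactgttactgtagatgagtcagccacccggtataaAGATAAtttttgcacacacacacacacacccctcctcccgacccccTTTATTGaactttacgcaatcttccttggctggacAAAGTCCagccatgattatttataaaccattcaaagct
Slc5a1: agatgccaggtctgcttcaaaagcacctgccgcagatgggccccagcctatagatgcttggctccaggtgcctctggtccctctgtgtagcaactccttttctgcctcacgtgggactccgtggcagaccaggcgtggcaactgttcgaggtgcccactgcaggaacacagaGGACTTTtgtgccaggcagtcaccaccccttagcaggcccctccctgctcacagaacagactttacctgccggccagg
Slc6a20a: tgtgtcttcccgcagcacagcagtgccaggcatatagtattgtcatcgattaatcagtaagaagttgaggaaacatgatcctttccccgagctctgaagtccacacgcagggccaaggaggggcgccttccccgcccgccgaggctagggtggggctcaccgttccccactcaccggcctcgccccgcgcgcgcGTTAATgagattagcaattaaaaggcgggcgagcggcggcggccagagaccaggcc

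A promoter was matched for 79 members, and 5 motifs were searched on both strands. A gene with several starts counted as matched if the window before any of them held the motif. Such genes had more chances of a match. Slc5a10, Slc7a15 and Slc7a7 had several starts, each with the HNF1 motif before only 1 of them. The HNF1 motif GTTAAT was found in 7.49% of the promoters of all 27025 genes, in 10.1% of the 79 and in 20.7% (6 of 29) of the matched promoters of members higher in P7 enterocyte-like than crypt-like cells. The HNF4 motif AAAGTCC was found in 4.15% of all, 2.53% of the 79 and 6.90% (2 of 29). The GATA motif AGATAA was found in 11.4% of all, 5.06% of the 79 and 13.8% (4 of 29), and the CDX motif TTTATNG in 11.3%, 6.33% and 6.90%. The amino acid response element TGCATCA was found in 3.10% of all, 5.06% of the 79 and 3.45% (1 of 29). Among the 12 matched promoters of members lower in enterocyte-like cells, the first 4 motifs had no match and the last had 1, in Slc6a9. These are letters in a window and describe no binding.

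In enterocyte-like cells of P7 over E17.5, the entry carriers Slc5a1, Slc3a1 and Slc15a1 stayed well under 2-fold, while the sugar exit carrier Slc2a2 and the amino acid carriers Slc6a19 and Slc43a2 were higher and the peptide carrier Slc15a2 was lower. Of 62 members, 16 were higher at P7, beside 11.9% of all genes, and 3 were lower, beside 5.51%. The median log2 ratio was 0.47 over the members and 0.19 over all genes. Since all E17.5 enterocyte-like cells were of the lipid-absorbing kind, the same was done in that kind alone. There 14 of 53 members were higher at P7, beside 11% of all genes, and 3 were lower, beside 6.77%. Of the 16 higher members, 5 were under 2-fold in that kind, namely Slc6a8 (log2 ratio 0.87), Slc38a7 (0.82), Slc36a1 (0.79), Slc38a6 (0.61) and Slc38a3 (-0.17, -0.96 to 0.71). Without the smaller E17.5 cluster of low mitochondrial share, 13 members were higher and 3 lower, and the share of all genes was not counted there. The members then under 2-fold were Slc36a1, Slc38a7 and Slc5a9.

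Slc5a1 stood at 249 CPM in P7 enterocyte-like cells and 228 CPM in E17.5 enterocyte-like cells, a log2 ratio of 0.13 (0.04–0.21). Slc3a1 likewise differed little, with a log2 ratio of 0.05 (-0.06 to 0.16), and Slc15a1 with 0.23 (-0.03 to 0.51). All 3 intervals lie within 2-fold. Slc7a9 had 340 CPM in P7 enterocyte-like cells and 210.0 CPM in E17.5 ones, and Slc7a7 had 267 CPM in P7 cells and 195 CPM in E17.5 cells, both under 2-fold. Slc6a20a was the textbook carrier with the lowest ratio, at 24.8 CPM in P7 cells and 43.1 CPM in E17.5 cells, a log2 ratio of -0.80 (-0.99 to -0.59).

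Among the carriers that were higher at P7, the sugar exit carrier Slc2a2 had 163 CPM, against 68.9 CPM at E17.5, a log2 ratio of 1.24 (1.09–1.39). In the lipid-absorbing kind alone, Slc2a2 had 217 CPM at P7, against 68.9 CPM at E17.5. The fructose carrier Slc2a5 had 13.1 CPM at P7 and 2.67 CPM at E17.5, a log2 ratio of 2.29 (1.56–3.14), and 20.9 CPM at P7 in the lipid-absorbing kind. Slc6a19 had 185 CPM in P7 cells and 69.2 CPM in E17.5 cells, a log2 ratio of 1.42 (1.27–1.57), or 1.26 without the smaller E17.5 cluster. Slc43a2 had 127 CPM at P7 and 47.5 CPM at E17.5, and Slc16a6 had 160 CPM at P7 and 56.6 CPM at E17.5. For the creatine carrier Slc6a8 the levels were 167 CPM at P7 and 77.9 CPM at E17.5. The monocarboxylate carrier Slc16a1 had 48.1 CPM at P7 and 19.8 CPM at E17.5. Wider ratios, with wide intervals, came from members that were low at E17.5. These were Slc5a8, a sodium-coupled carrier of lactate and short-chain fatty acids (26.3 CPM at P7 and 2.14 CPM at E17.5, log2 ratio 3.62, 2.82–4.58), which in the lipid-absorbing kind alone had 4.69 CPM at P7 (log2 ratio 1.14, 0.28–2.12), Slc1a1 (6.94 CPM at P7 and 0.712 CPM at E17.5, log2 ratio 3.29, 1.92–5.17, or 1.83 in the lipid-absorbing kind alone) and Slc7a5 (4.17 CPM at P7 and 0.712 CPM at E17.5, log2 ratio 2.55). The rest were Slc16a11, with 2 UMIs at E17.5 (log2 interval 0.45 to 5.41), Slc38a3 (1.25), Slc38a6 (1.09), Slc38a7 (1.05), Slc5a9 (1.02) and Slc36a1 (1.01). In the lipid-absorbing kind the members higher at P7 that the pooled cells did not give were Slc16a5, Slc16a12 and Slc2a9, the last a urate carrier.

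The 3 lower members were the facilitated glucose carrier Slc2a1, the lactate exporter Slc16a3 and the peptide carrier Slc15a2. Slc2a1 (chr4:119108711-119137983) had 8.95 CPM in P7 enterocyte-like cells and 43.4 CPM in E17.5 ones, a log2 ratio of -2.28 (-2.51 to -2.05). Slc16a3 had 1.02 CPM at P7 and 4.98 CPM at E17.5, also a log2 ratio of -2.28 (-2.98 to -1.56). Slc15a2 had 7.40 CPM at P7 and 15.3 CPM at E17.5, a log2 ratio of -1.05 (-1.39 to -0.69).

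In undifferentiated cells of E17.5 over E15.5, the amino acid entry carriers Slc6a19, Slc3a1 and Slc7a9 were the textbook gut transporters that were higher, 3 of 15. Of 46 members, 6 were higher at E17.5, beside 3.91% of all genes, and 3 were lower, beside 7.3%. Slc6a19 had 12.8 CPM (11–14.7) at E17.5 and 0.871 CPM (0.487–1.44) at E15.5, a log2 ratio of 3.87 (3.12–4.74). Its opposite-strand gene Slc6a19os had a log2 ratio of 3.93, and because the strand setting of the counting is not given, reads of the 2 genes cannot be told apart. Slc3a1 had 23.0 CPM at E17.5 and 6.09 CPM at E15.5, and its partner Slc7a9 had 48.3 CPM at E17.5 and 18.1 CPM at E15.5. Slc5a8 (2.27 CPM at E17.5 and 0.348 CPM at E15.5) and Slc5a11 (7.49 CPM at E17.5 and 3.37 CPM at E15.5) were the other higher members. The enterocyte markers summed to 4539 CPM in the undifferentiated cells of E17.5 and to 2385 CPM in those of E15.5, and their part in these ratios was not tested. Lower at E17.5 were Slc16a3 (5.68 CPM, against 29.8 CPM at E15.5), Slc38a4 (0.735 CPM, against 4.59 CPM at E15.5) and Slc7a5, the large neutral amino acid exchanger (4.55 CPM, against 9.23 CPM at E15.5). The transitional cells of E15.5 already held more of the entry carriers than the undifferentiated cells beside them, with 93.4 CPM of Slc7a9, against 18.1 CPM in undifferentiated cells, and 66.3 CPM of Slc5a1, against 26.1 CPM. In the same cells Slc6a19 had 11.8 CPM, against 0.871 CPM, and Slc15a1 had 8.65 CPM, against 0.290 CPM.

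Crypt-like cells of P7 and undifferentiated cells of E17.5 are not the same population and are set side by side. Of 56 members, 16 were higher in the P7 crypt-like cells, beside 11.6% of all genes, and 6 were lower, beside 4.7%. Slc38a2 had 158 CPM in crypt-like cells and 73.1 CPM in undifferentiated cells, a log2 ratio of 1.12 (1.02–1.21). Slc16a12 had 40.5 CPM in crypt-like cells and 14.4 CPM in undifferentiated cells, and Slc7a5 had 10.7 CPM in crypt-like cells and 4.55 CPM in undifferentiated cells. Slc1a1 had 9.44 CPM in crypt-like cells and 1.34 CPM in undifferentiated cells, a log2 ratio of 2.82 (2.17–3.55). The betaine carrier Slc6a12 had 51 UMIs in crypt-like cells and none in undifferentiated ones, which is at least 8.39-fold higher with a floor of 3 UMIs over the class. The others of the 10 widest were Slc16a5 (log2 ratio 2.26), Slc5a9 (2.17), Slc2a5 (2.12), Slc6a7 (1.97), Slc1a3 (1.92), Slc2a13 (1.77) and Slc16a11 (1.49). Lower in crypt-like cells were Slc16a3 (0.297 CPM, against 5.68 CPM in undifferentiated cells, log2 ratio -4.26, -5.44 to -3.27) and Slc2a1 (7.75 CPM, against 40.0 CPM in undifferentiated cells, log2 ratio -2.37, -2.59 to -2.15). The other lower members were Slc5a11 (-1.66), Slc15a2 (-1.66), Slc43a3 (-1.64) and Slc2a8 (-1.34). Beside these, 8 of 10 genes of dissociation and stress stood higher in crypt-like cells and none lower, and their part was not tested.

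Slc2a1 and Slc16a3 were lowest at P7 in each of the 5 cell groups plotted by stage. In undifferentiated epithelium, then crypt, Slc2a1 had 62.6 CPM (59.0–66.5) at E15.5, 40.0 CPM (36.8–43.3) at E17.5 and 7.75 CPM (6.79–8.81) at P7. In fibroblast-like cells Slc2a1 had 24.5 CPM, 26.2 CPM and 2.40 CPM at the 3 stages, and in visceral muscle-like cells 21.4 CPM, 35.3 CPM and 3.41 CPM, the last from 2 UMIs. Slc16a3, which exports lactate from glycolytic cells, had 16.1 CPM, 11.1 CPM and 0.219 CPM in fibroblast-like cells, the last from 1 UMI. Neuronal-like cells held more Slc16a3, with 45.9 CPM, 73.9 CPM (68.2–80.0) and 14.7 CPM. The related carrier Slc16a1 ran otherwise, being highest at P7 in neuronal-like cells, at 4.72 CPM, 4.36 CPM and 25.7 CPM, and in visceral muscle-like cells, at 9.70 CPM, 12.8 CPM and 34.1 CPM. In neuronal-like cells the enterocyte markers summed to 45.6 CPM, 84.3 CPM and 1184 CPM at the 3 stages, and the part of free RNA in the P7 levels of non-epithelial cells was not tested.

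**Figure D3:**
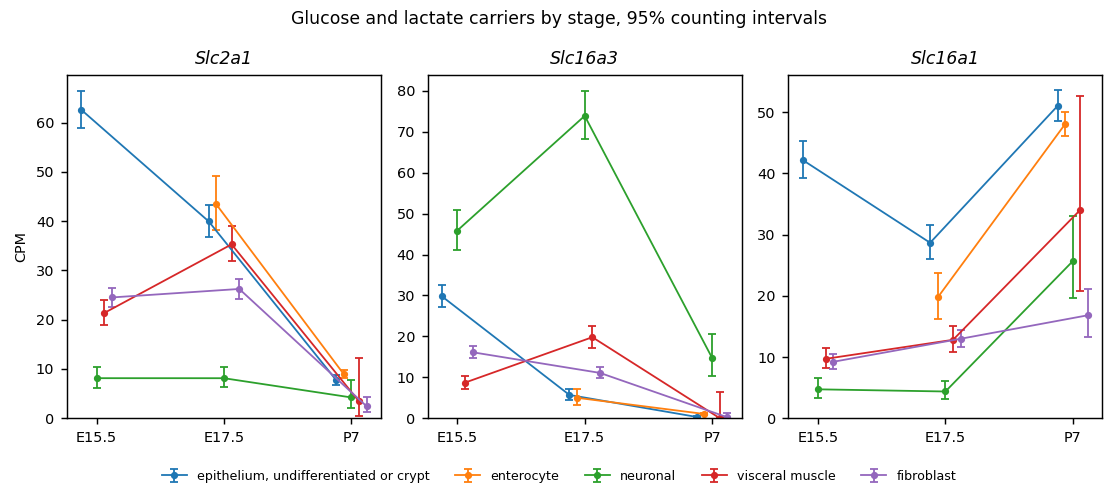
Levels in CPM, with exact Poisson 95% intervals, of the glucose carrier Slc2a1 and the monocarboxylate carriers Slc16a3 and Slc16a1 at E15.5, E17.5 and P7, with a line for undifferentiated or crypt epithelium, enterocyte-like, neuronal-like, visceral muscle-like and fibroblast-like cells. Slc2a1 and Slc16a3 are at their lowest at P7 in every line, and Slc16a1 is not.

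At P7 the enterocyte-like cells fell into a lysosome-rich kind (1013 cells), known in the suckling distal gut for engulfing milk protein, a lipid-absorbing kind (1548 cells), and 239 cells between them. The lysosome-rich markers summed to 16752 CPM in the lysosome-rich kind and 8657 CPM in the lipid-absorbing kind, and the lipid markers to 15072 CPM in the lysosome-rich kind and 48358 CPM in the lipid-absorbing kind. These lists also set the kinds, by the difference between their scores. On the lysosome-rich list the lysosome-rich clusters scored 4.30, 4.99 and 2.84. The lipid-absorbing clusters scored 4.04, 1.80 and 2.70 on it, so the kinds overlapped in that score. Of 55 members, 9 were higher in the lysosome-rich kind, beside 8.9% of all genes, and 6 were lower, beside 4.42%. With levels scaled by the median ratio of all genes, the split was 7 higher and 8 lower, and the share of all genes so scaled was not counted. The median log2 ratio was 0.07 over the members and 0.22 over all genes. Of 10 dissociation and stress genes, none was higher and 6 were lower in the lysosome-rich kind, and their part was not tested.

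Higher in the lysosome-rich kind was Slc5a8, the sodium-coupled lactate and short-chain fatty acid carrier on chromosome 10 (chr10:88885992-88929515), with 66.8 CPM (63.0–70.9), against 4.69 CPM (3.93–5.55) in the lipid-absorbing kind. Its log2 ratio was 3.83 (3.57–4.10). By cluster, Slc5a8 had 77.4 CPM, 42.3 CPM and 83.7 CPM in the 3 lysosome-rich clusters and 4.63 CPM, 1.08 CPM and 11.2 CPM in the 3 lipid-absorbing ones. Clusters of 1 library are not replicates. How many of all genes were likewise without overlap between these clusters was not counted, here or for the members below. Among cells thinned to 3000 UMIs, 15.0% of the lysosome-rich kind (54.2% unthinned) and 1.5% of the lipid-absorbing kind held a Slc5a8 UMI. Slc6a14, a broad carrier of neutral and cationic amino acids, had 11.2 CPM (9.65–12.9) in the lysosome-rich kind, against 0.208 CPM in the lipid-absorbing kind, with 12.5 CPM, 10.2 CPM and 11 CPM in the lysosome-rich clusters. The glutamate carrier Slc1a1 had 15.1 CPM in the lysosome-rich kind and 2.54 CPM in the lipid-absorbing kind. Its clusters ran 19.8 CPM, 5.52 CPM and 20.9 CPM in the lysosome-rich kind, all above the 1.92 CPM to 4.33 CPM of the lipid-absorbing one. The glutamine carrier Slc38a3 had 14.2 CPM in the lysosome-rich kind and 2.54 CPM in the lipid-absorbing kind, but its clusters overlapped, since 1 lysosome-rich cluster had 1.96 CPM and 1 lipid-absorbing cluster 5.59 CPM. Slc36a4 (log2 ratio 2.36), Slc2a1 (1.65), the vitamin carrier Slc5a6 (1.56), Slc15a2 (1.05) and the lysosomal amino acid sensor Slc38a9 (1.03) were the other higher members.

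Of the sugar carriers, Slc2a5, Slc2a2 and Slc2a9 were lower in the lysosome-rich kind, while Slc2a1, above, was higher. Slc2a5 had 1.01 CPM (0.590–1.62) in the lysosome-rich kind, against 20.9 CPM (19.3–22.7) in the lipid-absorbing kind, a log2 ratio of -4.37 (-5.16 to -3.68). The Slc2a5 clusters ran 0.702 CPM, 1.34 CPM and 0.978 CPM in the lysosome-rich kind and 11.4 CPM, 36 CPM and 11.5 CPM in the lipid-absorbing kind. Slc2a2 had 72.8 CPM (68.8–77.0) in the lysosome-rich kind, against 217 CPM (212–222) in the lipid-absorbing kind, but 1 lysosome-rich cluster reached 117 CPM and 1 lipid-absorbing cluster had 98.4 CPM, so the kinds overlapped. Slc16a6 had 80.0 CPM in the lysosome-rich kind and 211 CPM in the lipid-absorbing kind. Slc16a12 (log2 ratio -1.70), Slc16a5 (-2.84) and Slc2a9, a urate carrier of the same family (-1.12), were the other lower members. Slc5a1 was under 2-fold, with 171 CPM (165–177) in the lysosome-rich kind and 292 CPM (286–299) in the lipid-absorbing kind. Its levels by cluster did not overlap between the kinds, which was not counted over all genes. Among the amino acid entry carriers, Slc7a9 and Slc6a19 were under 2-fold, with Slc7a9 at 402 CPM in the lysosome-rich kind and 296 CPM in the lipid-absorbing kind, and Slc6a19 at 198 CPM in the lysosome-rich kind and 170.3 CPM in the lipid-absorbing kind. By role, the facilitated sugar carriers summed to 124 CPM in the lysosome-rich kind and 269 CPM in the lipid-absorbing kind, and the SLC6 carriers to 702 CPM in the lysosome-rich kind and 559.9 CPM in the lipid-absorbing kind.

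**Figure D4:**
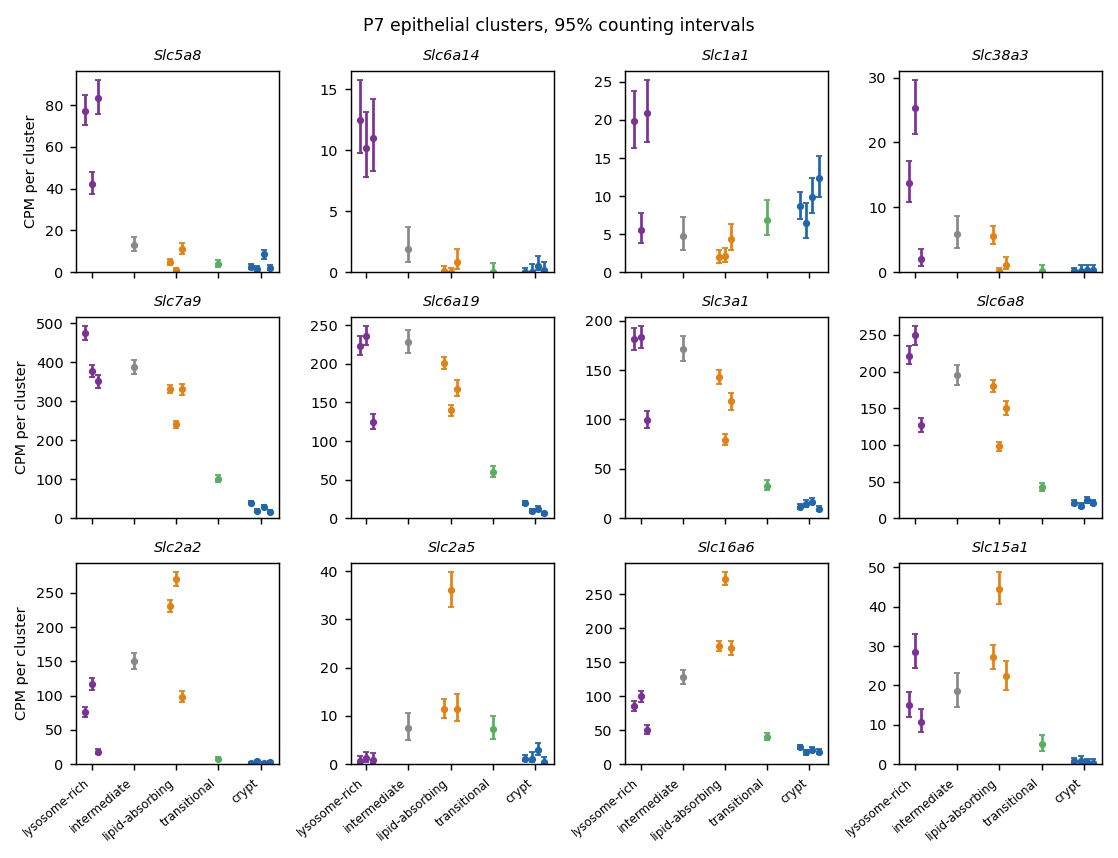
Levels in CPM of 12 members in each P7 epithelial cluster, with exact Poisson 95% intervals, the clusters ordered as lysosome-rich, intermediate, lipid-absorbing, transitional and crypt. Slc5a8, Slc6a14 and Slc1a1 are higher in the 3 lysosome-rich clusters and Slc2a5 in the 3 lipid-absorbing ones, while Slc2a2 and Slc38a3 overlap between the kinds.

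Genes known for their place along the gut also differed between the kinds. The ileal fatty acid binding protein gene Fabp6 had 589 CPM in the lysosome-rich kind and 4.90 CPM in the lipid-absorbing kind, and the ileal bile acid carrier Slc10a2 had 3.51 CPM in the lysosome-rich kind and 0.174 CPM in the lipid-absorbing kind. The proximal markers Gata4 (7.39 CPM in the lysosome-rich kind and 31.3 CPM in the lipid-absorbing kind), Onecut2 (1.97 CPM, against 105 CPM in the lipid-absorbing kind), Lct (241 CPM, against 777 CPM in the lipid-absorbing kind) and Fabp1 (655 CPM, against 14665 CPM in the lipid-absorbing kind) were lower in the lysosome-rich kind. Lct and Fabp1 are also on the lipid list that set the kinds, so their differences follow in part from the naming. Gata4 and Onecut2 are not on it. The distal marker Fgf15 was about even, at 96.0 CPM in the lysosome-rich kind and 93.8 CPM in the lipid-absorbing kind. How far position along the gut takes part in the differences between the kinds was not tested.

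In secretory cells the comparison of P7 with E17.5 rests on small classes. In goblet-like cells, 7 of 24 members were higher at P7, beside 9.25% of all genes, and 2 were lower, beside 15.7%. The higher ones were the glycine carrier Slc6a9 (21.6 CPM at P7 and 1.61 CPM at E17.5, log2 ratio 3.75, 2.38–5.47), Slc6a7 (30.4 CPM, against 7.38 CPM at E17.5), Slc6a8 (38.5 CPM, against 12.8 CPM at E17.5), Slc43a2 (81.7 CPM, against 29.9 CPM at E17.5), Slc7a9 (25.0 CPM, against 9.95 CPM at E17.5), Slc7a4 (50 CPM, against 22.8 CPM at E17.5) and Slc7a7 (79.7 CPM, against 39.2 CPM at E17.5). Slc16a1 (6.08 CPM, against 19.9 CPM at E17.5) and Slc16a3 (3.38 CPM, against 13.2 CPM at E17.5) were lower. In these cells the enterocyte markers summed to 3969 CPM at P7 and 1747 CPM at E17.5, and all 8 proliferation genes were lower and 5 of 8 dissociation and stress genes higher at P7. The part of these was not tested. Slc1a5 was high in secretory cells at both stages, with 72.9 CPM in P7 goblet-like cells, 61.3 CPM in E17.5 ones, and 89.8 CPM in the mixed Paneth and goblet cells of P7, its highest level of any class with 30 UMIs.

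In enteroendocrine-like cells, 11 of 34 members were higher at P7, beside 12.5% of all genes, and 3 were lower, beside 3.61%. The 10 widest were Slc7a9 (38.9 CPM at P7, against 2 UMIs at E17.5, log2 interval 2.36 to 7.32), Slc16a1 (log2 ratio 2.53), Slc7a7 (2.46), Slc16a6 (2.05), Slc16a12 (1.67), Slc6a19 (1.67), Slc5a1 (1.45), Slc1a5 (1.44), Slc3a1 (1.35) and Slc43a2 (1.18). The enterocyte markers in the enteroendocrine-like cells summed to 7904 CPM at P7 and 1331 CPM at E17.5. All 8 proliferation genes and 6 of 9 dissociation and stress genes were higher at P7, and the part of these was not tested. Slc38a5, a glutamine carrier, was hardly detected at P7, with 1 UMI, against 77 UMIs (78.6 CPM) at E17.5, a log2 interval of -12.89 to -5.05. The mixed enteroendocrine and goblet cells of E15.5 had 54.8 CPM of Slc38a5. Slc16a3 (8.69 CPM at P7 and 50 CPM at E17.5) and Slc2a1 (8.69 CPM, against 33.7 CPM at E17.5) were the other lower members. Slc2a5 stood higher in enteroendocrine-like cells than in any enterocyte-like kind taken as a whole, at 31.4 CPM (24.8–39.3) at P7 and 30.6 CPM (20.7–43.7) at E17.5. By cluster it did not, since 1 lipid-absorbing cluster of P7, given above, stood higher than both values. Slc38a11 had 55.4 CPM at P7 and 38.8 CPM at E17.5.

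In neuronal-like cells, Slc5a7 and Slc7a14 were among the 5 highest members at P7. Slc5a7, the high-affinity choline carrier that feeds acetylcholine synthesis (chr17:54273590-54299034), had 87.1 CPM (80.6–94.0) at E15.5, 98.0 CPM (91.4–105) at E17.5 and 217 CPM (199–237) at P7. In fibroblast-like cells Slc5a7 had 1.08 CPM, 1.91 CPM and 7.87 CPM at those stages. Slc7a14, of the cationic amino acid carrier family, had 37.6 CPM, 41.2 CPM and 158 CPM (143–175) in neuronal-like cells. The neuronal glucose carrier Slc2a3 had 74.0 CPM, 61.8 CPM and 80.0 CPM, and the neutral amino acid carrier Slc6a15 had 57.8 CPM, 37.6 CPM and 42.9 CPM, so neither was 2-fold apart between neighbouring stages. In fibroblast-like cells Slc2a3 had 4.18 CPM, 9.32 CPM and 2.19 CPM.

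For neuronal-like cells of E17.5 over E15.5, 1 of 39 members was higher, beside 3.8% of all genes, and none was lower, beside 0.932%. That member was the cationic amino acid carrier Slc7a3, with 5.21 CPM at E17.5 and 1.18 CPM at E15.5. Of 10 dissociation and stress genes, 6 were higher at E17.5 than at E15.5, and 1 was higher and 5 lower at P7 than at E17.5. At P7, 13 of 38 members were higher than at E17.5, beside 12.9% of all genes, and 1 was lower, beside 6.16%. The widest was Slc6a17, a synaptic vesicle carrier of neutral amino acids (15.6 CPM at P7 and 1.45 CPM at E17.5, log2 ratio 3.42, 2.45–4.50). The proton-coupled inositol carrier Slc2a13 had 45.0 CPM at P7 and 7.39 CPM at E17.5, and Slc36a1 had 61.5 CPM at P7 and 12.7 CPM at E17.5. Slc7a14 had a log2 ratio of 1.94 (1.73–2.16) and Slc5a7 of 1.15 (0.99–1.31). Others were Slc16a1 (2.56), Slc7a7 (2.17), Slc6a6 (1.39), Slc36a4 (1.34), Slc1a2 (1.18), Slc16a7 (1.14) and Slc43a2 (1.02), and Slc16a3 was lower (-2.33, -2.86 to -1.83). The number of neuronal-like cells was 688, 909 and 176 at E15.5, E17.5 and P7.

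Glial-like cells were few, with 203, 821 and 66 cells. At E17.5, 1 of 24 members was higher than at E15.5, beside 6.49% of all genes, and none was lower, beside 0.72%. All 10 dissociation and stress genes were higher at E17.5 (median log2 ratio 3.17), and their part was not tested. The member was Slc43a3, a purine nucleobase carrier, with 26.2 CPM at E17.5 and 12.4 CPM at E15.5. At P7, 8 of 23 members were higher than at E17.5, beside 18.4% of all genes, and none was lower, beside 4.32%. Slc43a3 had 143 CPM at P7 and 26.2 CPM at E17.5, a log2 ratio of 2.44 (1.78–3.06). Others that were higher were Slc6a8 (1.97), Slc6a6 (1.76), Slc38a9 (1.44), Slc38a10 (1.38), the glutamate carrier Slc1a2 (1.27) and Slc36a4 (1.07, from 3 UMIs, interval -1.27 to 2.75). The P7 value rests on 189260 UMIs in all, of which 30 UMIs are 159 CPM, and Slc1a2 and Slc36a4 turned sign when cells were classed one by one.

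In visceral muscle-like cells, of E17.5 over E15.5, 1 of 40 members was higher, beside 3.38% of all genes, and 6 were lower, beside 11.9%. All 8 proliferation genes were lower and 4 of 10 dissociation and stress genes higher at E17.5, and their part was not tested. The higher one was Slc16a3 (19.8 CPM at E17.5 and 8.69 CPM at E15.5). The lower ones were Slc6a15 (log2 ratio -2.06), Slc6a17 (-2.03), Slc16a9 (-1.60), Slc43a3 (-1.55), Slc16a4 (-1.36) and the neutral amino acid carrier Slc38a4 (20.9 CPM at E17.5 and 44.2 CPM at E15.5, -1.08). The glucose carrier Slc2a4, known for its response to insulin in muscle and fat, had 34.0 CPM, 50.4 CPM and 86.9 CPM (64.7–114) at E15.5, E17.5 and P7. In fibroblast-like cells Slc2a4 had 5.41 CPM, 5.42 CPM and 4.59 CPM. P7 visceral muscle-like cells numbered 84, and 6 of 30 members were higher in them than at E17.5, beside 10.1% of all genes, and 4 were lower, beside 4.64%. The higher ones were Slc6a9 (2.32), Slc7a8 (2.28), Slc16a10 (1.58), Slc38a9 (1.48), Slc16a1 (1.41) and Slc43a3 (1.11). Lower were Slc2a1 (2 UMIs at P7, log2 interval -6.42 to -1.51), Slc16a3 (0 UMIs, against 221 at E17.5, at least 3.87-fold lower with a floor of 3 UMIs over the class), Slc5a3 (-1.24) and Slc7a6os (-1.06). Enterocyte markers summed to 3680 CPM in the P7 visceral muscle-like cells and 81.1 CPM in those of E17.5, and their part was not tested.

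A second muscle-like class of P7, with little Actg2 beside its Acta2 and 2504 CPM of the 8 pericyte markers, is called vascular-type muscle (461 cells). Among its highest members were Slc38a2 (304 CPM), Slc3a2 (139 CPM), the glycine carrier Slc6a9 (81.2 CPM, 68.9–95.1) and the cationic amino acid carrier Slc7a2 (65.0 CPM). Slc38a11 (63.4 CPM) and Slc6a17 (49.8 CPM) followed. Slc6a9 had 17.0 CPM in the visceral muscle-like cells of P7 and 7.65 CPM in the fibroblast-like cells.

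**Figure D5:**
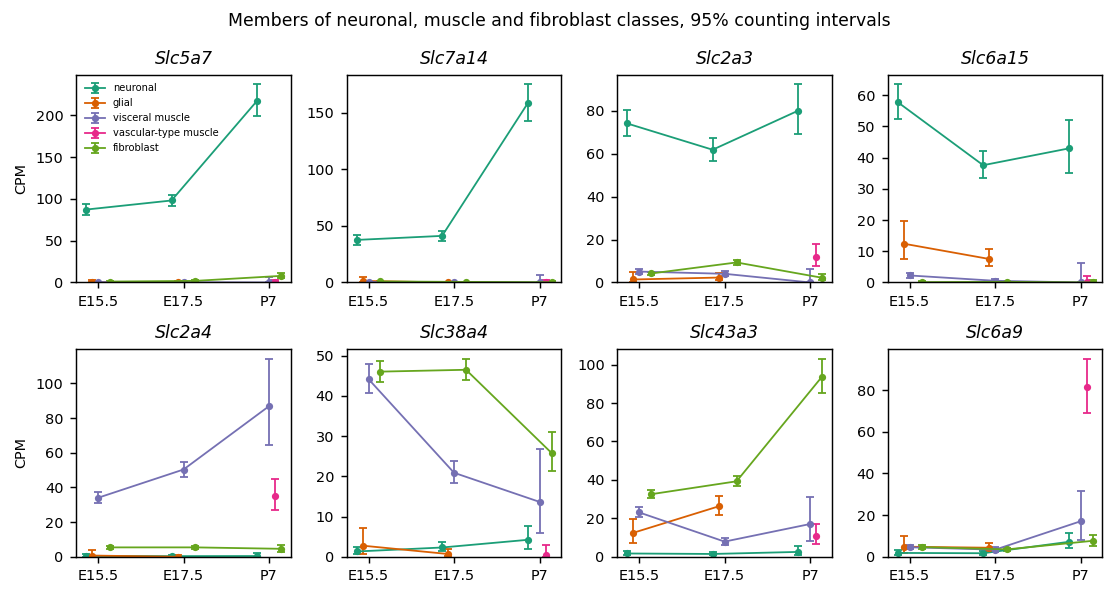
Levels in CPM, with exact Poisson 95% intervals, of 8 members by stage in neuronal-like, glial-like (without P7), visceral muscle-like, vascular-type muscle (P7 only) and fibroblast-like cells. Slc5a7, Slc7a14, Slc2a3 and Slc6a15 are highest in neuronal-like cells, Slc2a4 in visceral muscle-like cells and Slc6a9 in vascular-type muscle.

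In fibroblast-like cells, the largest non-epithelial class, 10 of 50 members were higher at E17.5 than at E15.5, beside 7.49% of all genes, and 2 were lower, beside 2.99%. Of 10 dissociation and stress genes 6 were higher, and of 8 proliferation genes 3 were lower, at E17.5, and their part was not tested. Among the higher ones were the low members Slc7a10 (3.00), Slc15a3 (2.20), the cystine exchanger Slc7a11 (2.06), Slc38a5 (2.01), Slc7a7 (1.29), Slc2a12 (1.18), Slc2a3 (1.16), Slc7a4 (1.14) and Slc7a8 (1.09). Slc7a5 (2.55 CPM at E17.5 and 7.28 CPM at E15.5) and Slc6a17 (2 UMIs at E17.5, log2 interval -6.97 to -1.89) were lower. At P7, 10 of 49 members were higher than at E17.5, beside 8.97% of all genes, and 6 were lower, beside 5.2%. Slc43a3 had 93.8 CPM (85.1–103) at P7 and 39.3 CPM at E17.5, and Slc38a10 had 56.6 CPM at P7 and 24.3 CPM at E17.5. Slc1a5 had 26.2 CPM at P7 and 7.37 CPM at E17.5, and Slc38a5 had 20.8 CPM at P7 and 7.81 CPM at E17.5. The rest that were higher were Slc16a12 (2.60), Slc15a3 (2.12), Slc5a7 (2.04), Slc7a8 (1.46), Slc7a4 (1.22) and Slc6a9 (1.11). Lower at P7 were Slc16a3 (1 UMI, log2 interval -10.97 to -3.17), Slc2a1 (-3.45, -4.46 to -2.60), the glutamate carrier Slc1a6 (-2.12), Slc2a3 (-2.09), Slc7a11 (0 UMIs, against 43 at E17.5, at least 2.61-fold lower with the same floor) and Slc2a8 (-1.04). Slc38a2 was the highest member at every stage, at 210.3 CPM, 279.9 CPM and 300.3 CPM.

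Proteins that work with the carriers were followed from fixed lists, beside the 19.6% of all genes that were higher and the 26.5% that were lower in P7 enterocyte-like than crypt-like cells. Of 7 measured partner proteins, 5 were higher in P7 enterocyte-like than crypt-like cells and none lower. Among them, the scaffold gene Pdzk1 had 143 CPM in enterocyte-like cells and 1.22 CPM in crypt-like cells. Of 13 brush border hydrolases, which release the sugars and amino acids, 10 were higher in enterocyte-like cells and none lower. Some of these hydrolases, among them Lct and Anpep, are also enterocyte markers that named the classes. The hydrolase count therefore follows in part from the naming. Of 10 absorptive regulators, 1 was higher (Prdm1, 83.2 CPM, against 21.2 CPM in crypt-like cells). Of 13 amino acid response genes, 3 were higher, a share near that of all genes, and 6 lower in enterocyte-like cells, and of 10 dissociation and stress genes none was higher and 9 were lower.

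Between P7 and E17.5 enterocyte-like cells, 8 of 20 textbook gut transporters were higher, beside 11.9% of all genes, and none lower, beside 5.51%. In the lipid-absorbing kind alone, 6 of the 20 were higher and none lower. No partner protein of 9 was higher and 2 were lower, Cltrn (0.341 CPM at P7 and 5.87 CPM at E17.5) and Emb (0.161 CPM, against 6.05 CPM at E17.5). Of 13 hydrolases, 5 were higher at P7, among them Naaladl1 (104 CPM, against 25.1 CPM at E17.5) and Ace (255 CPM, against 82.2 CPM at E17.5), and 1 was lower, Ggt1 (15.7 CPM, against 125 CPM at E17.5). Absorptive regulators gave 2 of 10 higher, among them Mlxipl (24.9 CPM at P7 and 5.69 CPM at E17.5), and 1 lower, Hnf4g (44.8 CPM, against 129 CPM at E17.5). Amino acid response genes gave 1 of 12 higher, Sesn2 (23.6 CPM at P7 and 4.63 CPM at E17.5), and 5 lower, including Phgdh (39.4 CPM, against 138 CPM at E17.5) and Asns (10.7 CPM, against 36.1 CPM at E17.5). Proliferation genes gave 1 higher and 4 lower of 8, and dissociation and stress genes 5 higher and 1 lower of 9. In the lysosome-rich over the lipid-absorbing kind, 3 of 13 hydrolases were higher, beside 8.9% of all genes, Mgam (288 CPM, against 73.3 CPM in the lipid-absorbing kind), Mep1a (733 CPM, against 268 CPM in the lipid-absorbing kind) and Naaladl1 (175 CPM, against 56.8 CPM in the lipid-absorbing kind). There 4 hydrolases were lower, beside 4.42%, including the lactase gene Lct and the aminopeptidase gene Anpep (140 CPM, against 443 CPM in the lipid-absorbing kind), as was the sodium and proton exchanger Slc9a3 among the partner proteins (8.87 CPM, against 57.8 CPM in the lipid-absorbing kind). Lct is also on the lipid list that set the kinds.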

How the data were processed

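Each sample was 1 Chromium 3′ v2 library. The authors deposited unnormalized counts of UMIs for each gene in each cell, per the file headers. The submitters' processing notes name Cell Ranger 7.2.0 and, as builds, mm10 and GRCm38. Deposited cells held 501 to 6989 genes. Gene positions are those of GENCODE M21 on GRCm38. Cells with 500 or more genes and under 15% mitochondrial UMIs were kept, and Scrublet (expected rate 6%) removed 243, 453 and 389 doublets at E15.5, E17.5 and P7, leaving 8204, 11145 and 8002 cells. Each library was clustered by itself with scanpy 1.11.5 (counts scaled to 10000 per cell, 2000 variable genes without members, 30 components, 15 neighbours, Leiden resolution 1), which gave 26, 31 and 30 clusters.

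A cluster's score for a marker list is the mean of its 5 highest log2 ratios, with 20 CPM added, to the median over all clusters, or over epithelial clusters for epithelial lists. A cluster took the best-scoring name where it led by 1 or more. It also needed 3 or more of that list's markers at a log2 ratio of 1 or more and found in 25% of its cells. Clusters with more red blood cell markers than own markers among their 10 leading genes stayed unnamed. Among epithelial clusters, those scoring 2.5 or more on the enterocyte, lysosome-rich or lipid lists are enterocyte-like, those at 2 to 2.5 transitional, those at 3 or more on a secretory list secretory, and P7 ones at 2 or more on crypt markers crypt-like. A secretory name also needed 2 of its own markers among the 10 leading genes and a score above those of the enterocyte, lysosome-rich and lipid lists. The enterocyte-like kinds differ by 0.5 or more between the lysosome-rich and lipid lists. Muscle with Actg2 under 10% of Acta2 is vascular-type. Named epithelium made up 15.7%, 14.1% and 75.2% of kept cells at E15.5, E17.5 and P7, and 14.1%, 11.7% and 2.75% stayed unnamed. Median depth per cell was 8503, 6262.5 and 14014 UMIs.

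UMIs were summed per class and divided by the class total to give CPM. A gene was compared where 1 side had 30 UMIs and where its lower bound exceeded the level free RNA could give, set from probe genes the class should lack (3.65% of the level in the rest of the library for P7 neuronal-like and 1.90% for P7 crypt-like cells). Under 3 UMIs, a floor of 3 UMIs was used. With 1 library per stage no test was run. The members, lists and scoring rule were chosen with earlier results of these data known. Named are all textbook gut transporters, the 5 highest members of a class, the 10 highest and 10 lowest members past 2-fold in a comparison, and members led by a non-epithelial class at 100 CPM or more. Alternatives covered the fold, the UMI minimum, doublets, clustering, marker gating and scaling. The deposited barcode names are identical in the 3 libraries and were not used. Calculations used Python 3.11.15, numpy 2.4.6, scipy 1.17.1 and pandas 2.3.3, and were tested on simulated data. A few genes of the lists and 1 member enter the counts and are not reported here by name.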

Additional observations from a re-analysis of the deposited data

Results flagged for a closer look

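Some members differed past 2-fold in opposite directions in different classes over the same stages, each from 1 library per stage, and these differences between classes were not tested. Slc16a3, a lactate exporter, had a log2 ratio of 1.19 in visceral muscle-like cells and -2.39 in undifferentiated epithelium, both of E17.5 over E15.5. Slc43a3, a purine nucleobase carrier, had 1.08 in glial-like cells and -1.55 in visceral muscle-like cells over the same stages. Slc16a1, of P7 over E17.5, had 1.28 in enterocyte-like, 2.53 in enteroendocrine-like, 2.56 in neuronal-like and 1.41 in visceral muscle-like cells, and -1.71 in goblet-like cells. Slc38a5, of P7 over E17.5, had 1.41 in fibroblast-like cells and -5.99 in enteroendocrine-like cells, the second from 1 UMI at P7 set at the floor.

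In cells left unnamed, and so in no comparison, the glycine carrier Slc6a9 had 43.3 CPM (30.5 to 59.7) in an E17.5 cluster of 158 cells. That cluster was led by Ndufa4l2, Cox4i2, Ebf1 and Rgs5 and scored 4.38 for pericyte and 3.82 for smooth muscle markers, too close to be named.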

How the results depend on the processing

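The numbers of members reaching 30 UMIs in a class stayed within 1.5 times under all alternatives. Counts past the threshold moved mainly with the threshold itself. The same counts over all genes were not taken under the alternatives, so those below describe the members only. With 1.5-fold, enterocyte-like cells of P7 over E17.5 gave 26 higher and 6 lower (reported 16 and 3), undifferentiated epithelium 15 and 8 (6 and 3), lysosome-rich over lipid-absorbing 15 and 15 (9 and 6), crypt-like over undifferentiated 11 lower (6), and the 4 non-epithelial classes together 27 and 20 for E17.5 over E15.5 (13 and 8) and 66 and 18 for P7 over E17.5 (37 and 11). With 3-fold these were 5 higher in enterocyte-like cells, 3 lower in the lysosome-rich kind, 8 higher in crypt-like cells (16), and 6 and 4, then 16 and 7, in the non-epithelial classes. A minimum of 10 UMIs gave 6 lower in enterocyte-like cells and 25 and 14 in the non-epithelial classes (E17.5 over E15.5). A minimum of 100 UMIs gave 9 and 2 in crypt-like cells, 5 and 3 in the non-epithelial classes (E17.5 over E15.5) and 14 higher there (P7 over E17.5). Resolution 2 gave 10 lower in the lysosome-rich kind, and gating each cell by marker z-scores gave 17 lower in the non-epithelial classes (P7 over E17.5); the cause was not tested.

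Of the named members' values under alternatives, 1504 stayed in place, 73 moved and 2 changed sign. Those that changed sign were Slc1a2 (-0.61) and Slc36a4 (-0.81) in glial-like cells of P7 over E17.5 with the z-score gate. The cause was not tested. Changing the fold, the UMI minimum or the free RNA limit cannot move a ratio. All 130 values under each of those settings stayed in place for that reason. Scaling by the median ratio subtracts that median from every gene, so genes move by the opposite sign. The median log2 ratio was over 0.1 in size in several comparisons. It was -0.14 in undifferentiated epithelium, -0.14 in P7 enterocyte-like over crypt-like cells and 0.21 in lysosome-rich over lipid-absorbing. It was 0.12 in goblet-like, 0.25 in neuronal-like (P7) and -0.30 in visceral muscle-like cells (E17.5). In glial-like cells it was -0.11 and -0.12, and in fibroblast-like cells -0.12 and 0.13. Leaving out the E17.5 cluster of low mitochondrial share and dropping the free RNA limit were chosen after seeing the data. No paired analysis was possible because each stage has 1 library. Rare classes, above all P7 glial-like and visceral muscle-like cells, limit what low members can show.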
